A study of Danio rerio with 8 samples.

Results

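The respiratory chain genes of the nucleus were followed in sorted cartilage cells of zebrafish (Danio rerio) larvae. Members were chosen by a rule that uses the gene symbol and no value, although earlier results of these data were known. It took genes named nduf followed by a, b, c, s or v, sdha to sdhd with their assembly factors, uqcr, cyc1, cox4 to cox8 and atp5. This rule found 103 of the 32057 genes in the deposited table, of which 44 belong to complex I, 9 to complex II, 9 to complex III, 22 to complex IV and 19 to complex V. The ndufa4 family is counted under complex IV, where the mammalian protein is now placed. Both groups carried Tg(sox10:EGFP) and Tg(col2a1a:mcherry), reporters of neural crest derived cells and of cartilage, and the kat6a group differed by kat6a, which encodes a lysine acetyltransferase of histones. Larvae were kept at 28.5 degrees Celsius with 0.003% PTU, which blocks pigment, and at 3 days after fertilisation whole larvae gave the cells, which were sorted for both reporters. RNA sequencing of 4 WT and 4 kat6a libraries was compared, each a biological replicate by the series design. What lesion the kat6a larvae carry, how they are related to the WT larvae and how many larvae went into a library was not stated in the labels.

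The respiratory chain sits in the inner mitochondrial membrane. Complex I takes electrons from NADH and complex II takes them from succinate, ubiquinone carries them to complex III, and cytochrome c carries them on to complex IV, which reduces oxygen. Complexes I, III and IV pump protons, and complex V, the ATP synthase, uses the returning protons to make ATP. Most subunits are encoded in the nucleus and imported, while the mitochondrial genome encodes a few central ones. Cartilage has no blood vessels, and chondrocytes are known for relying heavily on glycolysis.

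Values are FPKM, fragments scaled to transcript length and to the mapped total of the library, as the authors deposited them. This allows for length when genes are compared, but not for other differences in how genes are detected. Sequencing depth cannot be read from FPKM, and an exact 0 is read here only as a listed value. Kat6a replicates 4 and 1 had the fewest genes above 0, 11010 and 12541, beside 13429 to 16108 in the other libraries. The chondrocyte markers col2a1a and matn1 were high in all libraries, between 8994 and 20538 FPKM and between 7687 and 21751 FPKM. The cells were sorted with a col2a1a reporter, so its level is no independent test of identity. Neither level measures purity. Both libraries numbered 1 stood apart, with 9 chondrocyte markers giving 8.81% and 11.4% of all FPKM there and 16.9% to 19.1% elsewhere. That share is a sum and follows the most abundant markers. The median of the same 9 markers was highest in these libraries, at 2389 and 2127 FPKM beside 1357 to 1913 FPKM elsewhere. The kat6a transcript itself was at 32.0, 15.2, 16.3 and 18.9 FPKM in WT replicates 1 to 4 and at 28.2, 12, 12.4 and 9.09 FPKM in kat6a replicates 1 to 4. Those groups overlapped (log2 difference -0.46 ± 0.36 SE, adjusted p = 0.958 by limma), although kat6a was lower in 4 of 4 pairs, with -0.46 ± 0.17 SE and an adjusted p of 0.458 in the limma fit with the replicate number as a block. The transcript level alone therefore does not separate the labelled groups.

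Of the 103 members, 80 were above 0 in every library, 18 were listed at 0 in some libraries, and 5 were listed at 0 in all of them. Those 5 were ndufs1, ndufs8b, sdhda, cox4i1l and ndufa4l2b. Ndufs1 encodes a core iron-sulfur subunit of complex I that has no substitute in the complex, and the 13 protein genes of the mitochondrial genome were also listed at 0 throughout. Mean FPKM reached at least 0.5 in 92 members, and these entered the test of kat6a against WT. The other 6 with any value above 0, ndufaf6, ndufa4l2a, cox6a2, cox8b, cox5b2 and cox7a1, stayed at 1.97 FPKM or less in every library. The tested members had a median mean level of 15.6 FPKM, and that of all 11763 genes tested was 3.59.

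Complex V carried the highest levels and complex II the lowest. Summed FPKM followed the order V, IV, I, III, II in 8 of 8 libraries. Per gene, the median over tested subunits was lowest in complex II and next lowest in complex I in 8 of 8 libraries. Complexes III, IV and V changed places among themselves. Genes under a mean of 0.5 FPKM were left out of these medians. In complex IV 15 of 22 genes were tested, beside 41 of 44 in complex I, so the ranking holds for tested subunits only. The 5 members with a mean of at least 100 FPKM were atp5fa1, atp5f1b and atp5mc3b of the ATP synthase and cox4i1 and cox8a of complex IV, and 61 members had a mean of at least 10 FPKM. Complex I subunits reached at most 33.0 FPKM on average. The plot of mean levels by complex shows single genes and medians of tested members, not sums. There complex III lies above complex I, with medians of 15.7 and 11.2 FPKM.

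**Figure D1:**
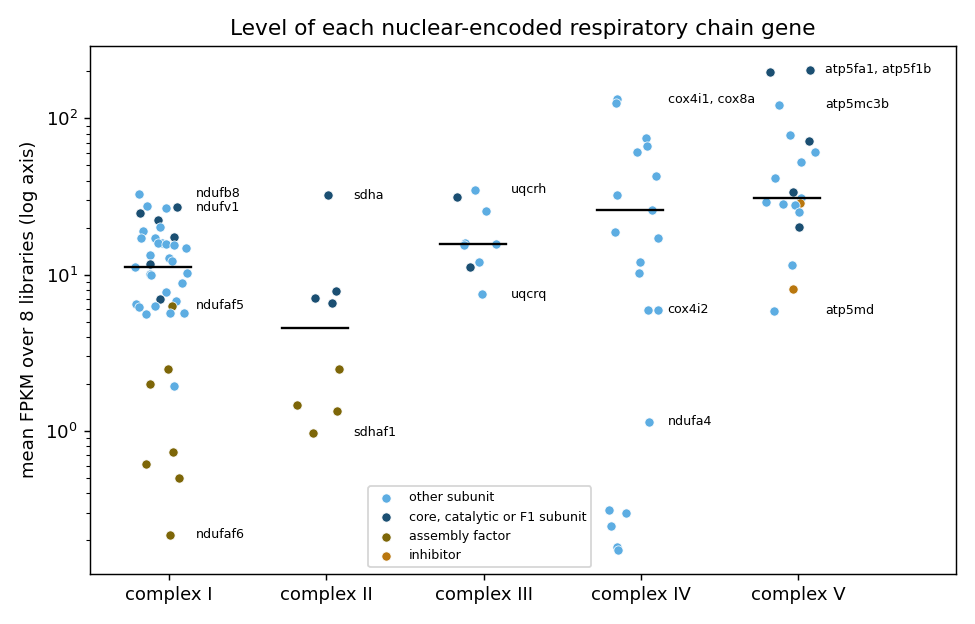
Mean FPKM over the 8 libraries, on a log axis, of each member above 0 in at least 1 library, grouped by complex I to V. Each point is 1 gene, its colour gives its role, and bars mark the median of the tested members. Complex V reaches 204 FPKM and the highest complex I member 33.0 FPKM.

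No member was called in kat6a against WT, and the summed FPKM of each complex overlapped between the groups. The test was limma on log2(FPKM + 1) over all 11763 genes, with a call at an adjusted p under 0.05. It called 2 genes of all tested (0.0170%) and 0 of the 92 members, whose smallest adjusted p was 0.958. At an unadjusted p under 0.05, ndufb3 and ndufb4 were higher in kat6a and ndufc2 was lower, which is 2 and 1 of 92 members beside 0.646% and 3.92% of all genes. Between WT and kat6a libraries, 0 members had groups that did not overlap in either direction, beside 0.561% of all genes with all kat6a libraries higher and 2.57% with all of them lower. Fitted differences were above 0 for 44 members and below 0 for 48, with a median of -0.02 beside -0.16 for all genes. In bulk RNA such as this, fewer cells of a type and less RNA per cell cannot be told apart.

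The share of members below 0 depended on how libraries were scaled. It was 52.2% with FPKM as deposited and 29.3% after median-ratio scaling, where the share for all genes went from 69.5% to 55.0% and their median from -0.16 to -0.04. The members' median was then 0.13. Under either scaling the members' median stood above that of all genes, but without WT replicate 1 it stood below, at -0.11 beside -0.06, with 63.0% of members and 57.0% of all genes below 0. In each of these fits 0 members were called.

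For most members the interval excluded a 2-fold change of FPKM + 1, a bound that says nothing of smaller changes. The 95% interval of the difference on the log2(FPKM + 1) scale lay within 2-fold in both directions for 67 of 92 members, and for 66 of the 80 that were above 0 in all libraries. In those 80 the standard error ran from 0.14 to 0.52, with a median of 0.25, and the differences ran from -0.75 for atp5if1a to 0.82 for ndufb3. The 12 tested members with listed zeros had standard errors from 0.32 to 1.48, and 1 of them, sdhaf3, had an interval within 2-fold. Its mean was 1.33 FPKM, where adding 1 understates the fold, so that interval does not bound the fold of its FPKM. The same holds for low members among the 66, such as sdhaf1 with a mean of 0.97 FPKM. The authors' deposited table has a p for 98 members, of which 1, cox8a, is under 0.05, and its smallest q among members is 0.877.

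**Figure D2:**
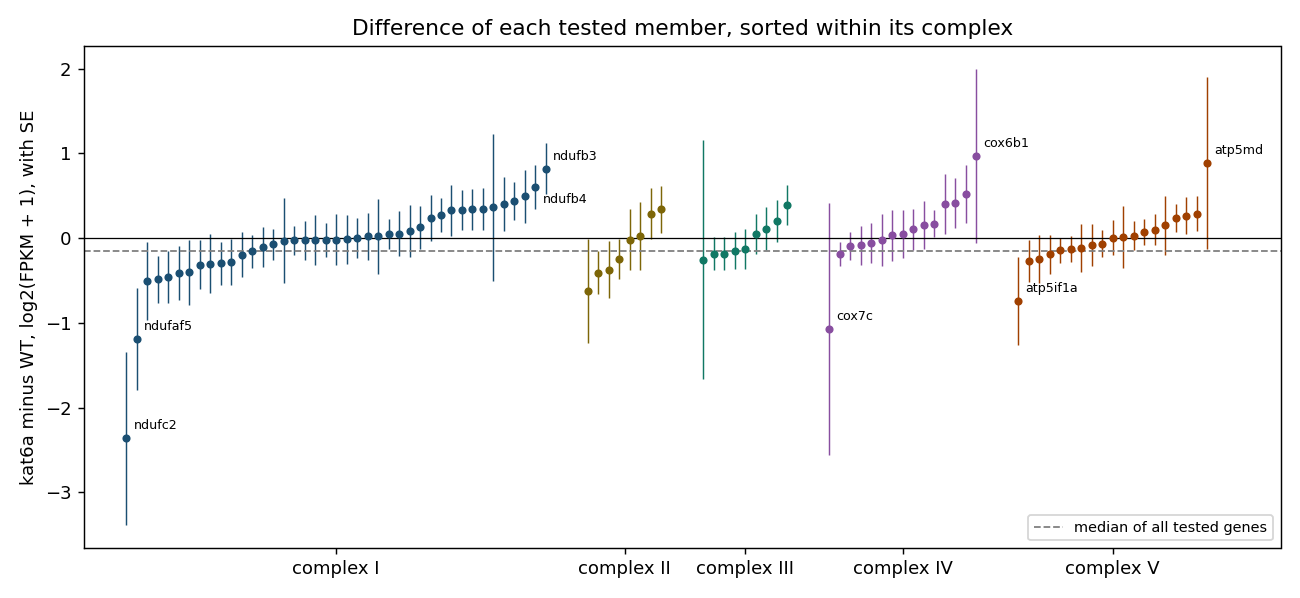
Fitted kat6a minus WT difference on the log2(FPKM + 1) scale for the tested members, sorted within each complex, with bars of 1 SE and a dashed line at the median of all tested genes (-0.16). Points lie on both sides of 0 in every complex, and the longest bars belong to members with listed zeros such as cox7c.

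Deviations from the group means were correlated between libraries with the same replicate number, so the numbers were also used as a block. The correlation was weak for numbers 3 and 4 (r = 0.127 and 0.151). Correlations between libraries of unlike number were not kept for comparison, and the library name of WT replicate 4 repeats number 3, so the pairing is uncertain. With that block, limma called 1 gene of all and 0 members, with a smallest adjusted p of 0.451. At an unadjusted p under 0.05 the blocked fit had 7 members higher in kat6a, namely atp5po, cox4i2, ndufa10, ndufb3, ndufb4, ndufb9 and ndufs6, beside 2.09% of all genes. It had 3 lower, namely ndufaf5, ndufc2 and sdha, beside 8.31% of all genes. Over the pairs, 11 of 92 members (12%) were higher in kat6a in 4 of 4 pairs, beside 4.49% of all genes. In the other direction 9 of 92 (9.78%) were lower in 4 of 4 pairs, beside 16.3% of all genes. These 9 include atp5fa1, atp5f1b, atp5mc3a, cox8a, sdhb and sdhdb, and the 11 include cox4i1, cox4i2, atp5po and 6 accessory subunits of complex I.

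Complex I is the entry point for electrons from NADH. Of its 44 genes, 41 were tested, 0 were called, and 23 of those 41 lay below 0, with a median difference of -0.02. The core subunits carry the flavin, the iron-sulfur clusters and the quinone site. Ndufv1, which binds the flavin and oxidises NADH, was at 21.2, 29.7, 31.1 and 36.9 FPKM in WT replicates 1 to 4 and at 18.5, 28.3, 31.2 and 18.7 FPKM in kat6a replicates 1 to 4. Its partner ndufv2 was at 18.2, 18.3, 20.1 and 22.5 FPKM in WT and at 10.5, 8.57, 25.6 and 16.5 FPKM in kat6a. Both groups overlapped for each gene, although 3 kat6a libraries lay under every WT library for ndufv2 and the remaining one lay above them all.

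Accessory subunits surround that core and are needed for its assembly or stability. The highest was ndufb8, at 29.7, 31.8, 35.0 and 36.8 FPKM in WT and 37.9, 32.0, 29.7 and 31.2 FPKM in kat6a, with a log2 difference of -0.03 ± 0.17 SE. Ndufs5 followed, at 24.6, 26.7, 27.5 and 33.5 FPKM in WT and 26.8, 27.9, 29.3 and 22.3 FPKM in kat6a. For both, the kat6a values fell among the WT values or close to them.

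Ndufb3, a small accessory subunit of the membrane arm, had the smallest unadjusted p of the complex. It was at 2.44, 7.5, 3.51 and 4.28 FPKM in WT and at 8.83, 8.32, 6.58 and 8.60 FPKM in kat6a. Every kat6a library but replicate 3 was above all WT libraries, yet WT replicate 2 exceeded kat6a replicate 3, so the groups overlapped. The log2 difference was 0.82 ± 0.30 SE (limma, unadjusted p = 0.0217, adjusted p = 0.958), and it was 0.58 without the pair numbered 1. Ndufb4, of the same arm and named here after its values were seen, was at 4.53, 4.67, 5.0 and 6.15 FPKM in WT and at 10.2, 8.61, 5.09 and 9.97 FPKM in kat6a, where only replicate 3 lay among the WT values.

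Ndufc2, another membrane arm subunit, was at 15.8, 23.6, 29.8 and 25.5 FPKM in WT and at 0, 24.1, 18.2 and 0 FPKM in kat6a. The low kat6a mean rests on the 2 listed zeros, since the other 2 kat6a libraries lie among the WT values. Its log2 difference of -2.36 ± 1.02 SE is therefore no measure of a fold. Both zeros fall in kat6a replicates 1 and 4, the libraries with the fewest genes above 0. The part of detection in these zeros was not tested. The factors that assemble complex I were low, and the summed FPKM of 7 such genes, ndufaf1 to ndufaf7, was 10.5 to 18.4 in WT and 7.51 to 13.7 in kat6a. Ndufaf5 (named after its values were seen), which modifies a core subunit during assembly, was the highest of them on average, at 10.6, 9.69, 9.81 and 4.20 FPKM in WT and 3.96, 5.50, 7.02 and 0 FPKM in kat6a. Each kat6a library was below the WT library of its number, and the groups overlapped through WT replicate 4.

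Complex II, succinate dehydrogenase, is shared with the citric acid cycle and is encoded wholly in the nucleus. Of its 9 genes, 8 were tested and 0 were called, with a median difference of -0.13. The flavoprotein gene sdha stood far above the other subunits, at 22, 45.2, 37.3 and 38.7 FPKM in WT and 13.8, 36.2, 38.4 and 25.6 FPKM in kat6a. The lowest value in each group came from the library numbered 1. The iron-sulfur subunit sdhb was at 8.58, 9.29, 7.92 and 8.41 FPKM in WT and at 8.25, 7.76, 7.91 and 4.75 FPKM in kat6a, so only kat6a replicate 4 departed from a narrow band. The ratio of sdha to sdhb was 2.57 and 1.67 in the libraries numbered 1 and 4.6 to 5.40 in the other 6.

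The membrane anchor genes had differences of opposite sign, and neither passed the test. Sdhc was at 4.08, 6.56, 5.86 and 8.19 FPKM in WT and at 5.19, 9.75, 9.53 and 7.88 FPKM in kat6a. Sdhdb was at 8.87, 6.27, 6.86 and 8.54 FPKM in WT and at 4.03, 4.43, 6.65 and 7.29 FPKM in kat6a, lower in 4 of 4 pairs with overlapping groups. The log2 differences were 0.34 ± 0.28 SE for sdhc and -0.41 ± 0.26 SE for sdhdb, each with an adjusted p of 0.958 by limma. Its duplicate sdhda was listed at 0 in all libraries. The 4 assembly factors sdhaf1 to sdhaf4 were all at 5.46 FPKM or less.

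Complex III passes electrons from ubiquinol to cytochrome c. All 9 of its genes were tested, 0 were called, and the median difference was -0.13. The hinge protein gene uqcrh was at 23.7, 37.8, 41.2 and 45.2 FPKM in WT and 25.8, 39.6, 35.4 and 31.9 FPKM in kat6a. Cyc1, which encodes cytochrome c1, was at 27.9, 34.1, 34.3 and 36.9 FPKM in WT and 22.7, 28.9, 36.1 and 30.1 FPKM in kat6a. In both genes the libraries numbered 1 were the lowest of their group, and the groups overlapped. Uqcrfs1, the Rieske iron-sulfur protein, had 10.5 to 13.6 FPKM in WT and 8.24 to 14 FPKM in kat6a.

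The smallest unadjusted p of complex III belonged to uqcrq, a small accessory subunit, at 4.86, 6.27, 5.6 and 9.03 FPKM in WT and 9.33, 8.40, 8.39 and 8.25 FPKM in kat6a (limma log2 difference 0.39 ± 0.24 SE, adjusted p = 0.958). WT replicate 4 lay within the kat6a values and the other 3 WT libraries lay below them. Uqcrb was at 32.7, 35.6, 0 and 44.1 FPKM in WT and at 0, 24.8, 21.5 and 46.2 FPKM in kat6a, so listed zeros fell in both groups. Of the duplicated core protein genes, uqcrc2a was at 18.9, 15.7, 16.7 and 14.8 FPKM in WT and 13.7, 13.0, 17.5 and 13.6 FPKM in kat6a, and it held 39.8% to 65.3% of the summed FPKM of uqcrc2a and uqcrc2b. Reads of such duplicates may be shared between the copies by the counting, so the share of a copy is less certain than the sum.

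Complex IV reduces oxygen and has several subunits with isoforms that differ by tissue or oxygen supply in mammals. Of its 22 genes, 15 were tested, 0 were called, and the median difference was 0.05. Cox4i1, the common form of the regulatory subunit IV, was at 138, 114, 111 and 137 FPKM in WT and 153, 120, 135 and 154 FPKM in kat6a, higher in 4 of 4 pairs but with overlapping groups. Cox4i2, whose mammalian counterpart is induced in low oxygen, was at 5.89, 3.12, 4.87 and 4.38 FPKM in WT and 10.8, 3.48, 5.94 and 9.28 FPKM in kat6a. Its log2 difference was 0.52 ± 0.34 SE (limma, adjusted p = 0.958), and the groups overlapped through kat6a replicate 2, the only kat6a library within the WT values. Cox4i2 made 2.67% to 4.21% of the cox4 total in WT and 2.82% to 6.61% in kat6a, so cox4i1 was the main form in every library.

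Cox8a had the smallest unadjusted p of the members in the authors' deposited table, at 0.0175 with a fold of 1.17 for WT over kat6a and a q of 0.877. It was at 125, 141, 137 and 133 FPKM in WT and 113, 130, 118 and 109 FPKM in kat6a, lower in 4 of 4 pairs, and only kat6a replicate 2 reached the WT range. The limma difference was -0.19 ± 0.14 SE (adjusted p = 0.958). Among the other abundant subunits, cox6c was at 53.6, 71.4, 78.2 and 104 FPKM in WT and 52.7, 70.2, 83.7 and 85.4 FPKM in kat6a. Cox6a1 was at 59.5, 73.7, 77.3 and 64.4 FPKM in WT and 65.2, 69.0, 67.7 and 55.4 FPKM in kat6a. The groups overlapped in both, and the highest value of each came from a WT library.

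The forms used by heart and skeletal muscle in mammals, cox6a2, cox7a1 and cox8b, were at or near 0. Cox6a2 was above 0 in 3 libraries and at most 1.05 FPKM, cox7a1 in 2 libraries and at most 1.05 FPKM, and cox8b in 1 library at 1.97 FPKM. Their widely used counterparts stood far higher. Cox7a2a was at 11.9, 12.9, 17.1 and 27.7 FPKM in WT and 11.2, 14.4, 20.2 and 21.2 FPKM in kat6a. Muscle transcripts were nevertheless in the libraries, since the marker list summed to 926 to 1458 FPKM in WT and 1271 to 2123 FPKM in kat6a, where 0 of the 23 marker genes were listed at 0 in all libraries, with 6 of 20 tested markers higher in kat6a at an unadjusted p under 0.05 and 0 called, beside 0.646% of all genes higher at that p. The part of muscle RNA in the levels of the other members was not tested.

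**Figure D3:**
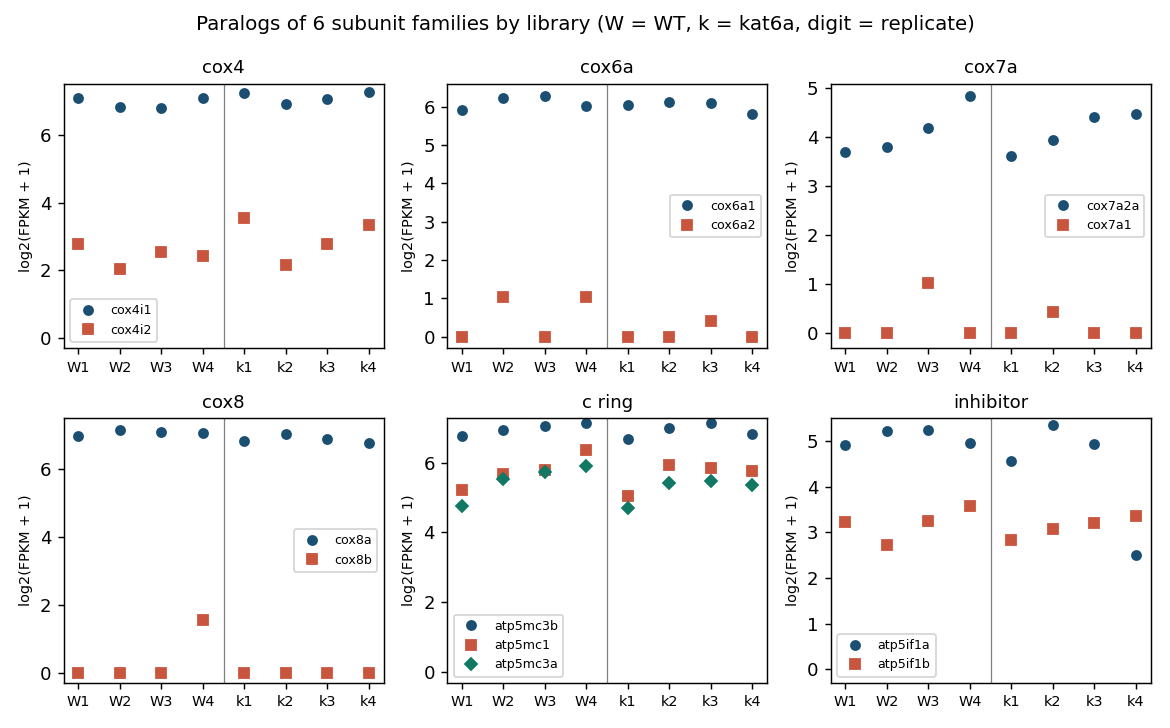
Values of 6 subunit families in each of the 8 libraries on a log2(FPKM + 1) axis, with W for WT, k for kat6a and the digit for the replicate. One form leads each cox family in all libraries, and atp5if1a is below atp5if1b in kat6a replicate 4 alone.

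The remaining complex IV members varied widely or were low. Cox6b2, a subunit whose mammalian counterpart is mainly found in testis, held most of its family here, at 30.5, 32.0, 47.9 and 55.6 FPKM in WT and 37.8, 37.5, 44.0 and 56.3 FPKM in kat6a. Cox6b1 was listed at 0 in WT replicates 1 and 3 and in kat6a replicate 1, and reached 17.1 FPKM in WT replicate 4. Cox7c was at 0, 16.7, 29.4 and 39.6 FPKM in WT and 0, 36.5, 28.5 and 0 FPKM in kat6a, another abundant gene with listed zeros in both groups. Cox7a2l, the mammalian counterpart of which joins complexes III and IV into larger assemblies, was at 6.91, 13.2, 11.6 and 16.8 FPKM in WT and 8.66, 14.4, 10.2 and 15.5 FPKM in kat6a. In the ndufa4 family, ndufa4l held 88.1% to 98.8% of the total, at 10.7, 25.1, 27.1 and 28.4 FPKM in WT and 29.0, 29.9, 27.7 and 28.8 FPKM in kat6a. WT replicate 1 was low, and the other 7 libraries differed little. Ndufa4 stayed at 2.52 FPKM or less and ndufa4l2a at 1.24 FPKM or less.

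Complex V couples a catalytic head, called F1, to a ring that turns in the membrane. All 19 genes were tested, 0 were called, and the median difference was 0.01. The head genes atp5fa1 and atp5f1b, for the alpha and beta subunits, led all members. Atp5fa1 was at 197, 231, 225 and 199 FPKM in WT and 160, 211, 221 and 191 FPKM in kat6a. Atp5f1b was at 173, 219, 224 and 218 FPKM in WT and 171, 197, 207 and 178 FPKM in kat6a. Both were lower in kat6a in 4 of 4 pairs, with differences of -0.13 ± 0.15 SE and -0.14 ± 0.15 SE on the log2 scale that did not pass the test. An assembled head holds alpha and beta in equal number and fewer gamma. The RNA ratio of atp5fa1 to atp5f1b was 0.91 to 1.14 over the 8 libraries, and that of atp5fa1 to the gamma gene atp5f1c was 2.53 to 3.39. The other head genes, atp5f1d and atp5f1e, were lower still, with means of 33.7 and 20.2 FPKM beside 71.2 FPKM for atp5f1c. Protein was not measured, so these RNA ratios do not give the make-up of the head.

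The ring subunit c is encoded by 3 genes here. Atp5mc3b was the highest in every library, at 108, 122, 132 and 138 FPKM in WT and 100, 126, 140 and 113 FPKM in kat6a, which is 49.7% to 63.8% of the total of the 3 genes. Atp5mc1 was at 36.1, 50.3, 53.9 and 81.2 FPKM in WT and 32.0, 60.4, 55.9 and 53.2 FPKM in kat6a. Atp5mc3a was at 26.2, 45.3, 52.4 and 58.8 FPKM in WT and 24.9, 41.6, 43.0 and 40.3 FPKM in kat6a. Each of the 3 genes was lowest in the libraries numbered 1 of both groups.

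Genes of the stalk that holds the head still, and of the small membrane subunits, had positive differences in 9 of 9 cases, under each scaling too, and 0 were called. Counting these roles together was not planned. Of all genes, 69.5% were below 0 as deposited, 55.0% after median-ratio scaling and 47.7% after quantile normalisation. The 9 differences ran from 0.005 for atp5pd to 0.88 ± 1.02 SE for atp5md, which had listed zeros in both groups. Leaving out a library left 6 to 9 of the 9 positive. Atp5po, which sits on top of the head and joins it to the stalk, was at 61.9, 69.9, 67.2 and 87.1 FPKM in WT and 73.3, 86.6, 82.9 and 93.2 FPKM in kat6a, higher in 4 of 4 pairs (limma log2 difference 0.23 ± 0.17 SE, adjusted p = 0.958). WT replicate 4 lay above kat6a replicates 1 to 3, so the groups overlapped. Of the 5 head genes 1 was above 0, and of the 3 ring genes 0 were, but after median-ratio scaling 3 and 2 were. Whether they differ from the stalk genes was not tested.

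The inhibitor that blocks the synthase from running backwards has a pair of genes, and 1 library decides the result of the more abundant copy. Atp5if1a was at 29.3, 36.2, 36.6 and 30.2 FPKM in WT and 22.8, 39.9, 29.7 and 4.63 FPKM in kat6a, a difference of -0.75 ± 0.52 SE on the log2 scale that did not pass the test and was -0.13 without kat6a replicate 4. It held 33.4% of the inhibitor total in kat6a replicate 4 and 73.4% to 86.5% in the other 7 libraries. Atp5if1b was at 8.36, 5.64, 8.49 and 10.9 FPKM in WT and 6.16, 7.36, 8.28 and 9.22 FPKM in kat6a, where replicate 4 was the highest.

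The spread within each group was larger than the difference between the groups. The members summed to 2054, 2459, 2517 and 2889 FPKM in WT and to 2052, 2562, 2647 and 2395 FPKM in kat6a, or 0.630% to 0.903% of all FPKM. The means were 2480 ± 342 in WT and 2414 ± 263 in kat6a (SD, n = 4), and the WT range contained every kat6a value but that of replicate 1. Among the 80 members above 0 in all libraries, WT replicate 1 was the lowest of its group for 60 and WT replicate 4 the highest for 52. In kat6a, replicate 1 was the lowest for 40, and no library led as often as WT replicate 4. That WT library also had the largest epidermal marker sum, 439 FPKM beside 20.1 to 102 FPKM in the other 7, and the part of other cell types in its high values was not tested.

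**Figure D4:**
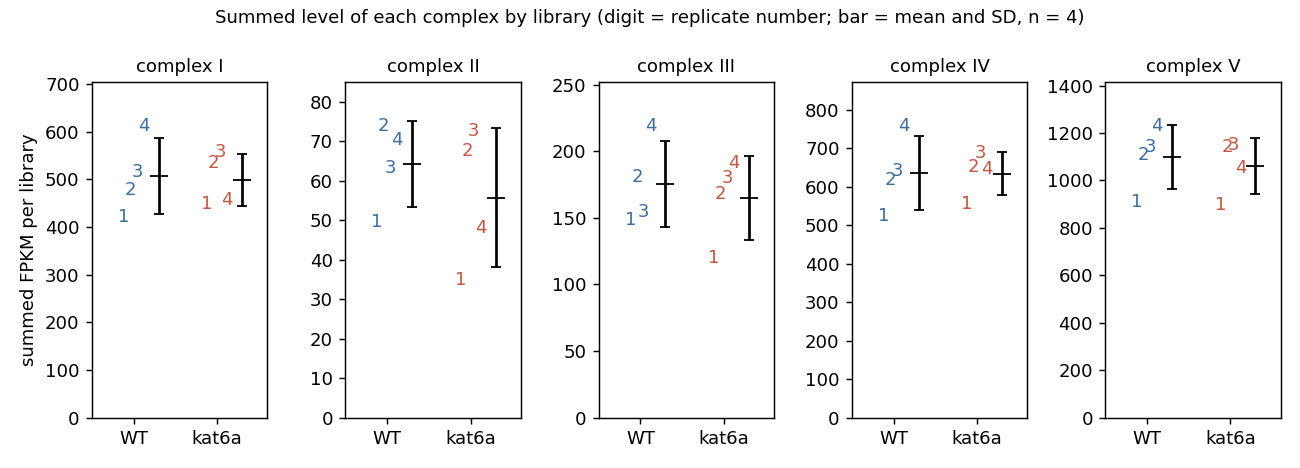
Summed FPKM of each complex in WT and kat6a, each digit standing for the library of that replicate number and the bars for mean and SD (n = 4). The order V, IV, I, III, II holds in 8 of 8 libraries, and every pair of groups overlaps.

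The balance of complexes I and IV to complex V was steadier than the sums of these complexes. Complex I over complex V ranged from 0.43 to 0.50 and complex IV over complex V from 0.56 to 0.62 across the 8 libraries, while the sums ranged from 422 to 612 FPKM for complex I, from 524 to 758 FPKM for complex IV and from 895 to 1229 FPKM for complex V. A ratio within a library cancels any factor that scales the whole library, so part of this steadiness is built in. Complex III over complex V was less steady, from 0.13 to 0.18. Groups overlapped in each ratio. Complex II over complex V was the least even, at 0.05 to 0.07 in WT and 0.04 to 0.06 in kat6a, with the lowest value in kat6a replicate 1.

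Other mitochondrial genes were read from lists outside the symbol rule, and 0 of them were called. Of 70 tested genes of the mitochondrial ribosome, which translates the mitochondrial genome, 5 were lower in kat6a and 0 higher at an unadjusted p under 0.05, and 4 had all kat6a libraries below all WT libraries, beside the 2.57% of all genes given above. At that p 3.92% of all genes were lower and 0.646% higher. The median difference of the ribosomal genes was -0.25, but -0.04 without kat6a replicate 1 and -0.01 after quantile normalisation. The lowest p belonged to mrps35, a small ribosomal subunit gene, at 3.96, 3.67, 5.43 and 4.8 FPKM in WT and 1.01, 1.96, 2.97 and 0 FPKM in kat6a. Of 32 tested assembly factors not named by the rule, 3 were lower and 0 higher at that p, with a median of -0.23, and of 25 import genes 2 were lower and 0 higher, with a median of -0.26. The 20 citric acid cycle genes and the 15 genes of electron carriers had 0 at that p, with medians of -0.15 and -0.18, and so had the 6 carriers of adenine nucleotides, phosphate and ions, with a median of 0.12. These medians rest on the scaling and on single libraries. Quantile normalisation gave 0.07 for the assembly factors, 0.01 for import, 0.11 for electron carriers and -0.04 for the citric acid cycle, and without kat6a replicate 1 import was at -0.09 and electron carriers at 0.03. Without WT replicate 4 the assembly factors were at -0.09 and the citric acid cycle at -0.02.

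Regulators of mitochondrial biogenesis lay below 0 in 10 of 10 tested genes, with a median of -0.39, and 0 were called, beside 69.5% of all genes below 0 and their median of -0.16. With FPKM as deposited, the 13 regulators with a row, tested or not, summed to 59.4 to 73.6 FPKM in WT and to 43.2 to 57.9 FPKM in kat6a, which did not overlap. As a share of all FPKM these sums were 0.0185% to 0.0230% in WT and 0.0137% to 0.0181% in kat6a, also without overlap. By gene, 0 of the 10 tested regulators had groups that did not overlap. The sum was not taken under median-ratio, upper-quartile or quantile scaling. Marker sums of lens, of liver and pancreas, and of epidermis also had lower means in kat6a. So had those of red blood cells, neurons and endothelium, while the marker sums of muscle, leukocytes and chondrocytes had higher means in kat6a. The 5 lens markers, which include both genes called over the whole table, summed to 58.7 to 166 FPKM in WT and 0.44 to 17.7 FPKM in kat6a, with a median difference of -3.42. Liver and pancreas markers, 6 in number, summed to 14.7 to 58.4 FPKM in WT and 1.41 to 17.3 FPKM in kat6a, and the 6 epidermal markers to 37.2 to 439 FPKM and 20.1 to 77.7 FPKM. The part of these tissues in the values of the regulators was not tested. Esrra, a nuclear receptor that activates respiratory genes in mammals, was at 3.52, 2.46, 2.02 and 4.14 FPKM in WT and 0.46, 2.26, 1.32 and 0.98 FPKM in kat6a (limma log2 difference -0.87 ± 0.33 SE, unadjusted p = 0.0238, adjusted p = 0.958). Kat6a replicate 2 lay within the WT values and the other 3 kat6a libraries lay below them. Tfam, which packs mitochondrial DNA and is needed for its transcription, was at 6.40, 3.62, 1.85 and 7.0 FPKM in WT and 3.38, 1.24, 2.95 and 0.67 FPKM in kat6a. The count below 0 was 7 of 10 after median-ratio scaling, 8 of 10 after upper-quartile scaling and 6 of 10 after quantile normalisation, and 7 of 10 without WT replicate 4, so it depends on the scaling and on single libraries.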

How the data were processed

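The authors deposited FPKM for 32057 genes, and, per the file headers, their own fold (a ratio of WT over kat6a), p-value and q-value for each gene. The submitters' processing notes list HISAT2, StringTie and the build GRCz10, with no version of either tool. Per the labels' protocols a directional kit was used. No sequences or coordinates were used here. The table held 0 per-library columns without a sample, and 102 of 103 members were found in a table of gene IDs and names. Members and lists were chosen with earlier results of these data known. Genes with a mean of at least 0.5 FPKM entered limma on log2(FPKM + 1), in version 3.58.1 under R 4.3.3 with an intensity trend. The test was two-sided, with Benjamini-Hochberg adjustment over all tested genes and a call at 0.05. It was first run on simulated data with large changes in well expressed genes. That run checked only their size and sign, so it gives no power for the members. Fold changes on the log2(FPKM + 1) scale understate those of low genes. Same-numbered libraries had correlated deviations from their group means (r = 0.589, 0.347, 0.127 and 0.151 for numbers 1 to 4). All exceeded 0.1, so the numbers were taken to pair the libraries, from the data and not from the labels. The same values gave the pairs and the blocked fit, so neither is independent of that choice. The label of WT replicate 4 has a library name that repeats number 3, and its title was followed. Named members are, per complex, the 3 highest, the 2 with the smallest p, isoform families, and those with a median of at least 10 FPKM and a listed 0. Alternatives were another pseudocount, filter or scaling, the block, and leaving libraries out. FPKM gives no counts, so depth is unknown and no counting interval could be had.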

Additional observations from a re-analysis of the deposited data

Results flagged for a closer look

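In 87 groups of 4 libraries, the highest or lowest value was compared with the nearest of the other 3, and 10 groups held a value that stood apart; chance alone flags about 1 group in 20. Sdhb was at 4.75 FPKM in kat6a replicate 4 and at 7.76 to 8.25 FPKM in the other kat6a libraries. Uqcrc2a was at 17.5 FPKM in kat6a replicate 3 beside 13.0 to 13.7 FPKM, and uqcrq at 9.33 FPKM in kat6a replicate 1 beside 8.25 to 8.40 FPKM. Atp5f1b was at 173 FPKM in WT replicate 1 beside 218 to 224 FPKM, and atp5mc3a at 24.9 FPKM in kat6a replicate 1 beside 40.3 to 43.0 FPKM. The other 5 are genes listed at 0 in the remaining 3 libraries of the group. There any value above 0 stands apart by construction, so the rate of 1 in 20 does not apply to them. These are ndufa4l2a at 0.33 FPKM and cox8b at 1.97 FPKM in WT replicate 4, cox7a1 at 1.05 FPKM in WT replicate 3 and at 0.343 FPKM in kat6a replicate 2, and cox6a2 at 0.319 FPKM in kat6a replicate 3.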

How the results depend on the processing

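No respiratory chain member was called in any of the 17 alternatives, whose smallest adjusted p for a member ran from 0.448 to 1. Over all genes, the count of 2 called was 1 with a pseudocount of 0.1 and 1 with the replicate block. It was 0 with no filter, with median-ratio, quantile or upper-quartile scaling, with median-ratio scaling and the replicate block, and without the pair numbered 1. Leaving out 1 library at a time gave 0 to 5 genes, the 5 without kat6a replicate 4. The members' median ran from -0.11 without WT replicate 1 to 0.13 with median-ratio scaling, so its sign depended on the setting. It stayed within 1 SD (0.17) of the value reported. That SD is the spread over single kat6a libraries of their median difference from the WT mean, which is a wide bound. Without WT replicate 1 the members' median lay below that of all genes (-0.06). The complex III median of -0.13 was 0.22 without WT replicate 4 and 0.11 without kat6a replicate 1. Of 34 named members with a fit, 20 kept their sign in all 17 alternatives. The causes were not tested. Within the pairing by number, ndufc2 and the other 9 members at an unadjusted p under 0.05 stayed uncalled. Depth is unknown, 12 tested members have listed zeros and standard errors up to 1.48, and the kat6a transcript overlapped between the groups.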

Other observations

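Some subunit genes carry symbols outside the rule and were found through a second table of names. The one named COX5B was at 89.2, 98.2, 87.7 and 104 FPKM in WT and 82.1, 89.3, 105 and 82.6 FPKM in kat6a, at the level of the abundant complex IV members. The gene zgc:193541, listed there as atp5mj, was at 36.1, 39.0, 42.8 and 61.0 FPKM in WT and 49.3, 51.7, 59.8 and 62.1 FPKM in kat6a, higher in 4 of 4 pairs with overlapping groups (limma log2 difference 0.33 ± 0.20 SE, adjusted p = 0.958). NDUFB1 was at 30.1, 25.8, 20.9 and 27.9 FPKM in WT and 57.5, 26.1, 39.3 and 22.9 FPKM in kat6a. The other 4 such genes each had listed zeros.

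Among carriers that serve the chain, slc25a5, an adenine nucleotide carrier of the inner membrane, was at 1391 to 1598 FPKM in WT and 1489 to 1819 FPKM in kat6a, above every respiratory chain member. Cycsb, a cytochrome c gene, was at 30.6, 72.9, 58.0 and 81.6 FPKM in WT and 28.5, 73.0, 50.9 and 55.5 FPKM in kat6a, lowest in the libraries numbered 1 of both groups. These genes were chosen after their values were seen.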
